A study of Mus musculus with 15 samples.

Results

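Between Day 10 and Day 12 of the culture, 4896 of 13836 genes tested moved out of their Day 10 range in the same direction whichever of the 2 stimulations the optic tissue received. These genes were chosen by a plain rule on the deposited expression values: the 6 Day 12 values, 3 with Fgf stimulation and 3 with Wnt stimulation, all lay above, or all lay below, the 3 Day 10 values. By this rule 2338 genes were higher at Day 12 (16.9% of the genes tested) and 2558 were lower (18.5%), together 35.4%. A gene was tested if it had at least 1 CPM in at least 3 of the 15 libraries of the series, which left out the rest of the 23244 entries in the table. Here CPM is the value deposited for every gene and library, the reads on a gene scaled by edgeR for library size.

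The tissue came from SFEBq cultures, in which mouse embryonic stem cells aggregate in suspension and form retinal progenitor epithelium at their surface. All libraries shared 1 reporter line, EB5 Rx::GFP+/-, in which GFP marks cells that express the eye field gene Rax, so that each group is 3 samples of the same line. Day 10 libraries held Rx::GFP+ tissue before any stimulation. Tissue cut out with forceps at Day 10 was then cultured as explants either with Fgf stimulation (+Fgf: bFgf at 5 ng/ml with 10% FBS) or with Wnt stimulation (+Wnt: CHIR99201, which inhibits the kinase GSK3, in a dose of 3 μM that was lowered to 1 μM after 24 h). Explants were collected at Day 12 and Day 15, in 3 replicates for each of the 5 groups.

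What the Day 12 groups had in common was 2 further days, explant culture and the change of medium, besides any effect that both stimulations share. No Day 12 group without stimulation was analysed here, so these cannot be told apart. All 6 Day 12 libraries also had a higher RNA integrity number than every Day 10 library. RNA quality was not a term of the main fit. With the number as a covariate limma called 4083 of the 4896 genes in the same direction. The RNA came from whole tissue pieces, in which fewer cells of a type and less RNA per cell cannot be told apart.

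The 9 libraries of Day 10 and Day 12 held between 13648344 and 16175450 reads on genes, as recovered from the deposited values. Eye field and optic progenitor genes were present throughout, with a summed level of 2450 to 2690 CPM at Day 10, 2388 to 2465 CPM in +Fgf and 1329 to 1392 CPM in +Wnt at Day 12. Neural retina markers summed to 1167 to 1208 CPM at Day 10, 2689 to 2923 CPM in +Fgf and 311.4 to 363.5 CPM in +Wnt, and pigment epithelium markers to 1025 to 1377, 322.7 to 381.2 and 1260 to 1728 CPM in the same order. The late visual cycle gene Rpe65 was at 0 in all 9 libraries. Of the genes that mark either fate, 0 of 10 pigment epithelium markers tested and 2 of 9 neural retina markers met the rule, beside 35.4% of all genes.

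Retinal progenitors change with time as well as with fate. A heterochronic pathway, in which Lin28 proteins hold back let-7 microRNAs and favour growth, is high in early progenitors and declines, while nuclear factor I proteins mark later progenitors. Neurogenesis starts when proneural factors such as Neurog2 and Neurod1 are expressed under the control of Notch signalling, and growth is set by Myc, which drives the building of ribosomes.

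Of the 4896 genes, 4813 were also called by limma on log2(CPM + 0.3) at an adjusted p of 0.05. Of the 4896, only these are said below to have risen (2301 genes, 16.6% of those tested) or fallen (2512 genes, 18.2%). The fit used the same contrast as the rule, so that its p-values are given as a description. Limma called 8074 genes in all (58.4%), 4122 of them higher (29.8%) and 3952 lower (28.6%), and 3261 of the 8074 had overlapping values. The median log2 change was 0.51 among the genes that were higher, -0.35 among those that were lower and 0.00 (0.00406) over all genes tested. Large changes were the exception: 420 of the higher genes had a mean log2 change of at least 1, and 228 reached it in both stimulations, against 225 and 127 of the lower genes.

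Values near the border of the rule show how fine it can be. Cflar, an inhibitor of death receptor signalling, was just inside, with 33.4 to 35.7 CPM at Day 10 and 35.7 to 42.0 CPM at Day 12. Tmed9, a cargo receptor of the secretory pathway, was just outside with 132 to 135 CPM and 135 to 142 CPM. Riok3 (98.0 to 106 CPM at Day 10 and 75.3 to 98.0 CPM at Day 12) was the nearest gene inside the rule among those that were lower, and Amd1 (243 to 259.5 and 217 to 243.5 CPM) the nearest outside.

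The genes with the largest change shared by both stimulations were named by the smaller of their +Fgf and +Wnt log2 changes. The entry with the largest shared rise carries the names A930011O12Rik, Mir124a-1 and Mir3078. It counts reads on the host transcript and nearby sequences, not on a mature microRNA. It had 1.36, 1.67 and 1.91 CPM at Day 10, 12.7, 11.3 and 11.8 CPM in the +Fgf libraries and 10.6, 10.7 and 14.2 CPM in the +Wnt libraries. All 6 Day 12 values were far above the Day 10 range and those of the stimulations overlapped each other (log2 change 2.65, SE 0.11, limma adjusted p = 6.78e-11; +Fgf against +Wnt adjusted p = 0.891).

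The proneural gene Neurog2, which encodes a basic helix-loop-helix factor that commits progenitors to neurons, lies at chr3:127633135-127635631 on the plus strand of mm10. Its level was 9.95, 8.29 and 12.3 CPM at Day 10, 35.5, 43.5 and 33.7 CPM in +Fgf and 49.2, 42.7 and 37.7 CPM in +Wnt. The Day 12 libraries stood clear of Day 10 and the stimulations overlapped (log2 change 1.96, SE 0.11, adjusted p = 1.42e-09). Neurod1, a factor that acts in newly formed neurons, measured 3.202, 3.94 and 6.19 CPM, then 19.5, 20.4 and 19.9 CPM in +Fgf and 17.0, 13.9 and 15.8 CPM in +Wnt, a log2 change of 1.96 (SE 0.14). An annotated gene on the opposite strand overlaps exons of Neurod1, and another those of Srrm4. The strand setting of the counting is not given in the sources used here, so reads of these overlapping genes cannot be told apart. Srrm4, a splicing factor of neural microexons, was at 3.82, 3.08 and 7.11 CPM at Day 10, 16.8, 18.4 and 18.1 CPM in +Fgf and 24.1, 23.0 and 28.3 CPM in +Wnt. Its lowest Day 12 library was well above the highest Day 10 library, and the log2 change was 2.19 (SE 0.17).

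Of the other names that rose, Myt1, a zinc finger factor of neuronal differentiation, did so by 2.09 on the log2 scale (SE 0.19), Stmn4, a microtubule regulator of the stathmin family, by 2.46 (SE 0.20), Gpm6b, a membrane proteolipid of neurons and glia, by 2.12 (SE 0.16) and Sema6d, a membrane-bound guidance cue, by 2.01 (SE 0.14). Tmem35 rose by 2.19 (SE 0.10), the non-coding RNA D930028M14Rik by 2.34 (SE 0.20) and Capn3, a calcium-dependent protease, by 2.16 (SE 0.17). Slc16a3, a lactate exporter, rose by 2.06 (SE 0.30) with the widest spread of the group. Its level went from 10.6, 15.4 and 9.78 CPM to 35.7, 80.1 and 30.6 CPM in +Fgf and 91.8, 27.7 and 66.5 CPM in +Wnt, and each stimulation had high and low libraries.

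**Figure D1:**
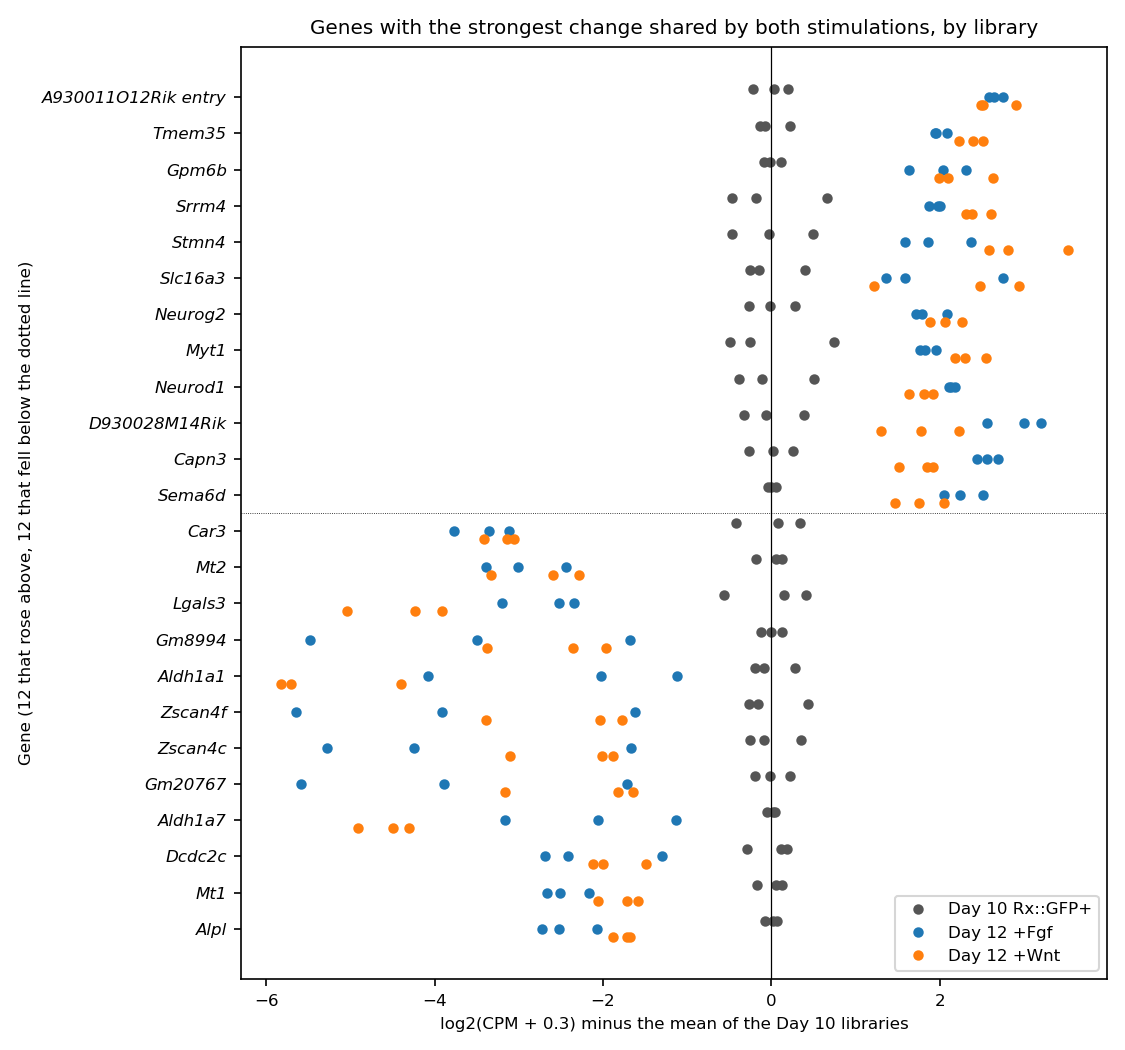
Log2(CPM + 0.3) of the 24 genes with the largest shared change, in the 9 libraries of Day 10 (grey), Day 12 +Fgf (blue) and Day 12 +Wnt (orange), each minus the gene's Day 10 mean; each point is 1 library. Day 12 points lie on 1 side of all Day 10 points in every row, as the rule requires, but the 2 colours part for Aldh1a1, whose change was -2.40 in +Fgf and -5.31 in +Wnt, and coincide for the A930011O12Rik entry (2.66 and 2.63).

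Among the 12 names that fell, 4 varied together from library to library at Day 12. Zscan4f and Zscan4c, zinc finger genes known from early embryos and rare embryonic stem cells, had 12.1, 13.1 and 19.9 CPM and 9.47, 10.6 and 14.5 CPM at Day 10. In the +Fgf libraries Zscan4f was at 0.697, 4.59 and 0 CPM, and in +Wnt at 4.09, 3.34 and 1.12 CPM. Zscan4c and the predicted genes Gm8994 and Gm20767 were likewise at or near 0 in the +Fgf library of replicate 3 and highest of that group in replicate 2. The log2 changes lay between -2.97 and -3.06 with SEs of 0.53 to 0.58, the least precise of the named genes. These genes have near-identical copies among which reads cannot be assigned with certainty, so that each value is uncertain for the single gene.

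Car3, a muscle and fat carbonic anhydrase, fell from 33.3, 19.5 and 27.7 CPM to 1.65, 2.29 and 2.75 CPM in +Fgf and 2.89, 2.71 and 2.19 CPM in +Wnt. The 6 Day 12 values were close together and far below Day 10 (log2 change -3.31, SE 0.20, adjusted p = 2.62e-09). Alpl, the tissue-nonspecific alkaline phosphatase of stem cells and bone, fell by 2.097 on the log2 scale (SE 0.15), Lgals3, a galectin, by 3.54 (SE 0.27) and Dcdc2c, a doublecortin domain gene, by 2.00 (SE 0.27). The metallothioneins, small proteins that bind zinc and copper, fell together: Mt1 went from 91.9, 74.7 and 87.4 CPM to 13.1, 18.6 and 14.5 CPM in +Fgf and 28.0, 25.5 and 20.1 CPM in +Wnt. For Mt2 the levels were 68.3, 57.8 and 71.8 CPM, then 7.92, 11.9 and 6.005 CPM in +Fgf and 13.3, 10.7 and 6.29 CPM in +Wnt. The genes are close paralogs and an annotated gene lies opposite Mt2, so that the split of reads between them is uncertain.

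Aldh1a1, which makes retinoic acid in the dorsal eye, had the largest fall in the mean. Its values were 596, 552 and 763 CPM at Day 10, 37.1, 291 and 155 CPM in +Fgf and 10.8, 29.6 and 11.8 CPM in +Wnt. The +Fgf libraries spread widely and all lay above all +Wnt libraries, with a log2 change of -2.40 in +Fgf and -5.31 in +Wnt (difference 2.90, adjusted p = 0.00014). Its close paralog Aldh1a7 changed by -2.12 and -4.57. With the retinoic acid binding proteins Crabp1 (-0.43 in +Fgf and -2.19 in +Wnt) and Crabp2 (-0.92 and -0.57), Aldh1a1 made up the 3 of 14 retinoic acid pathway genes that fell. That share, 21.4%, was near the 18.2% of all genes.

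Genes that set developmental timing fell as a group, 7 of 10 tested (70.0%, beside 18.2% of all genes), with a median log2 change of -0.56. Lin28a, the RNA-binding protein that blocks let-7 maturation, lies at chr4:134003330-134018841 on the minus strand. It had 127, 135 and 117 CPM at Day 10, 32.5, 35.0 and 22.4 CPM in +Fgf and 66.2, 59.4 and 60.04 CPM in +Wnt. Every +Fgf value lay below every +Wnt value, and both groups lay below Day 10 (log2 change -1.55, SE 0.43, adjusted p = 0.00564). The SE was pooled over all 5 groups. The difference between stimulations missed the threshold (+Fgf minus +Wnt -1.06, adjusted p = 0.0864). By Day 15 the mean was 4.99 ± 3.59 CPM in +Fgf and 4.65 ± 3.48 CPM in +Wnt (SD, n = 3).

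Nr6a1, an orphan nuclear receptor of early embryos and a let-7 target, spans chr2:38723370-38927688 on the minus strand. Its level fell from 45.0, 54.6 and 41.9 CPM to 11.6, 10.1 and 8.05 CPM in +Fgf and 19.3, 17.8 and 18.0 CPM in +Wnt. All 3 groups were separate from each other, and the change was larger in +Fgf (-2.22) than in +Wnt (-1.34, adjusted p of the difference = 3.23e-05). Trim71, an RNA-binding ubiquitin ligase that is the let-7 target known from worms as lin-41, had the opposite order. It measured 21.2, 25.1 and 21.1 CPM at Day 10, 13.9, 14.8 and 12.4 CPM in +Fgf and 7.42, 5.15 and 5.23 CPM in +Wnt, so that its fall was larger in +Wnt (-1.88) than in +Fgf (-0.70, adjusted p of the difference = 0.000533).

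The other members that fell changed less in the mean of both stimulations. Lin28b, the paralog of Lin28a, fell by 0.56 on the log2 scale, the growth-related RNA-binding proteins Igf2bp2 and Igf2bp3 by 0.62 and 0.24, and the chromatin protein Hmga1 by 0.56. Hmga2, its relative and a classical let-7 target, moved in +Wnt (log2 change -1.25) and was outside the rule, since its mean was 445 ± 45.1 CPM at Day 10, 581 ± 42.6 CPM in +Fgf and 187 ± 17.9 CPM in +Wnt (SD, n = 3). At Day 15 it stood at 46.5 ± 9.95 and 24.8 ± 7.37 CPM in the same stimulations.

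Late progenitor factors formed the opposite group: 5 of 7 rose (71.4%, beside 16.6% of all genes), with a median log2 change of 1.19. Nfia, a nuclear factor I gene at chr4:97772734-98118874 on the plus strand that acts in late retinal progenitors and glia, had 4.63, 4.01 and 4.28 CPM at Day 10, 8.87, 9.81 and 4.92 CPM in +Fgf and 16.1, 18.9 and 23.9 CPM in +Wnt. The +Fgf library of replicate 3 was barely above Day 10, while all +Wnt values were well above both groups (log2 change 0.77 and 2.096, adjusted p of the difference = 0.000373). Nfib, its neighbour in the family, rose from 15.9, 18.1 and 20.3 CPM to 33.8, 31.0 and 27.6 CPM in +Fgf and 53.7, 51.7 and 63.9 CPM in +Wnt. Nfic had the reverse order, from 12.7, 12.2 and 13.3 CPM to 48.7, 42.4 and 61.2 CPM in +Fgf and 27.1, 25.1 and 27.5 CPM in +Wnt. Thus the members that rose in both stimulations differed in which stimulation had more.

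Sox9, a factor of progenitors and Müller glia, rose by 0.52 on the log2 scale (SE 0.07) and Zbtb20, a zinc finger repressor of late neural progenitors, by 0.83 (SE 0.19) from levels below 1 CPM. Nfix was called higher by limma (log2 change 1.22, adjusted p = 0.0129) but overlapped Day 10 through the same +Fgf library, at 0.703 CPM beside 0.535 to 0.841 CPM. At Day 15 the median of the list relative to Day 10 was 1.44 to 2.08 in the +Fgf libraries and 2.09 to 2.36 in +Wnt. Nfia then averaged 99.5 ± 9.26 CPM and Nfib 226 ± 15.4 CPM in +Wnt, against 23.0 ± 9.2 and 68.9 ± 31.3 CPM in +Fgf (SD, n = 3). With the RNA integrity number as a covariate the median of the list was 0.73 and 5 members still rose.

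**Figure D2:**
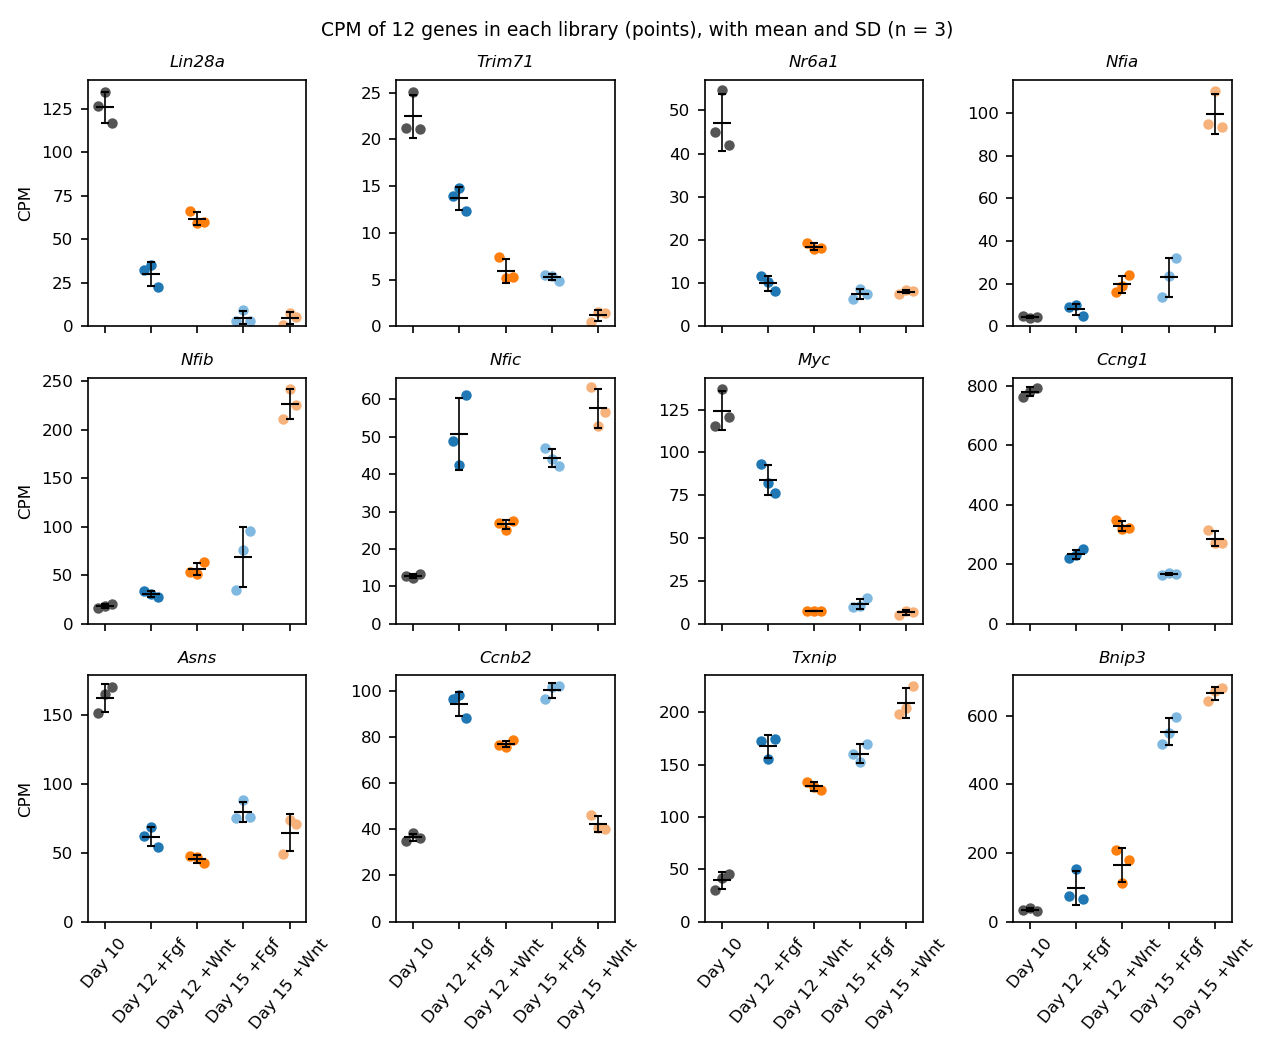
CPM of 12 genes in the 15 libraries by group, with points for libraries and bars for the mean and SD (n = 3) on a linear axis per gene. Lin28a, Trim71, Nr6a1, Myc, Ccng1 and Asns were below their Day 10 values in all 6 Day 12 libraries, whereas Nfia, Nfib, Nfic, Ccnb2, Txnip and Bnip3 were above.

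Neuronal differentiation genes rose in 8 of 18 cases (44.4%, beside 16.6% of all genes), and another 8 were called higher with overlapping values. Limma called 29.8% of all genes higher, with or without overlap. The list had the highest median log2 change of all, 1.85. Stmn2, a microtubule regulator of growing axons, had 8.99, 8.76 and 15.7 CPM at Day 10, 29.5, 33.1 and 30.1 CPM in +Fgf and 60.8, 72.6 and 97.4 CPM in +Wnt. Tubb3, the neuronal beta-tubulin, had 51.8, 40.5 and 80.6 CPM, then 142, 160.4 and 143 CPM in +Fgf and 312, 369.6 and 411 CPM in +Wnt. For both genes the 3 groups were separate and +Wnt was highest. The differences, +Fgf minus +Wnt, of -1.28 for Stmn2 and -1.29 for Tubb3 were larger than the spread between replicates (adjusted p = 1.28e-05 and 5.11e-06).

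The same order held for the intermediate filament gene Ina (log2 change 1.00 in +Fgf and 3.01 in +Wnt) and for the neuronal RNA-binding genes Elavl3 (1.43 and 2.48) and Elavl4 (0.73 and 1.84). In 6 of the 8 members that rose the stimulations differed, each time with more in +Wnt, while Neurog2 and Neurod1 were the exceptions (adjusted p = 0.217 and 0.0788). At Day 15 Neurod1 averaged 124 ± 15.1 CPM in +Fgf and 19.0 ± 1.80 CPM in +Wnt (SD, n = 3). Neurog2 showed 199 ± 7.7 and 59.3 ± 7.54 CPM.

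Notch pathway genes rose in 5 of 15 cases (33.3%, beside 16.6% of all genes). Hes5, a Notch target counted here with the neural retina markers, had 11.9, 9.63 and 13.9 CPM at Day 10, 20.8, 27.3 and 21.9 CPM in +Fgf and 45.5, 49.6 and 42.1 CPM in +Wnt, and its 3 groups did not overlap. The ligand Dll4 went from 0.545, 0.535 and 1.30 CPM to 13.8, 11.2 and 15.0 CPM in +Fgf but only to 1.95, 2.44 and 2.25 CPM in +Wnt (adjusted p of the difference = 3.99e-08). Hey1, a target, rose by 1.05 and Hes6, an antagonist of other Hes factors, by 0.71. The feedback inhibitor Nrarp rose by 0.61 and the Notch-modifying glycosyltransferase Lfng by 0.31.

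Ribosome biogenesis genes fell in 19 of 20 cases (95.0%, beside 18.2% of all genes), the highest share of any list. The median log2 change was -0.48. Myc, the transcription factor that drives this programme, lies at chr15:61985391-61990374 on the plus strand. It had 115, 137 and 121 CPM at Day 10, 93.5, 81.9 and 76.4 CPM in +Fgf and 7.61, 7.45 and 7.61 CPM in +Wnt. Both Day 12 groups lay below Day 10, and +Wnt lay far below +Fgf (log2 change -0.57 and -3.98, adjusted p of the difference = 1.14e-11). By Day 15 the +Fgf mean was 11.8 ± 2.94 CPM as well (SD, n = 3). Mycn, its relative in neural progenitors, was the member that did not fall, with 64.9 ± 6.61 CPM at Day 10, 77.1 ± 5.98 CPM in +Fgf and 45.0 ± 4.03 CPM in +Wnt.

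The factors named here that build the ribosome fell less than Myc in +Wnt, while in +Fgf Gnl3 and Myc changed by similar amounts. Bop1, which processes ribosomal RNA of the large subunit, had 107, 93.9 and 104 CPM, then 75.5, 77.4 and 72.6 CPM in +Fgf and 58.1, 55.3 and 59.2 CPM in +Wnt (log2 change -0.43 and -0.82). Nolc1, a nucleolar chaperone of small nucleolar particles, fell by 0.62 (SE 0.06) and Gnl3, nucleostemin, by 0.60 (SE 0.07). The stimulations differed in 11 of the 19 members, always with the larger fall in +Wnt. Gnl3 was among the rest, at -0.56 in +Fgf and -0.63 in +Wnt (adjusted p of the difference = 0.488).

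Genes of the amino acid response are induced by the factor Atf4 when amino acids run short. They fell in 16 of 22 cases (72.7%, beside 18.2% of all genes), with a median log2 change of -0.89. Asns, asparagine synthetase, spans chr6:7675169-7693254 on the minus strand. It had 151, 165 and 171 CPM at Day 10, 62.2, 68.5 and 54.4 CPM in +Fgf and 47.5, 46.8 and 42.3 CPM in +Wnt. The 3 groups did not overlap (log2 change -1.61, SE 0.10, adjusted p = 4.25e-09). The motif TGATGNAA, a core of the site at which Atf4 pairs with C/EBP factors, stands near its start. A run of 30 bases around the match is shown from the RefSeq promoter table (GRCm38.p6), chr6:7693214-7693243, minus strand, with the motif in capitals. The match begins at position -23 from the RefSeq start and lies within the GENCODE gene, whose start is 45 bases upstream of the RefSeq start.
Asns: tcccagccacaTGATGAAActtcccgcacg
Searched on both strands from 250 bases before to 50 bases after the start, TGATGNAA occurred in 6 of 17 promoters of the list (35.3%) and in 2.11% of the 10179 promoters of tested genes. It occurred in 2.11% of promoters of genes that rose and 2.0% of those of genes that fell. Slc7a11, Chac1 and Nupr1 also held it and were outside the rule.

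Sesn2, a sestrin that restrains mTORC1, fell from 117, 189 and 119 CPM to 40.0, 44.02 and 38.5 CPM in +Fgf and 63.3, 51.5 and 57.2 CPM in +Wnt, and Slc7a3, a cationic amino acid transporter, from 20.9, 17.8 and 22.9 CPM to 8.56, 7.58 and 7.03 CPM in +Fgf and 6.61, 4.94 and 5.23 CPM in +Wnt. Trib3, a pseudokinase that feeds back on Atf4, fell by 1.82 (SE 0.28), although Day 10 replicate 2 stood apart at 13.7 CPM beside 4.63 and 4.66 CPM. Members that did not fall included the cystine transporter Slc7a11 (0.05 in +Fgf and 0.45 in +Wnt) and Ddit3, the stress factor CHOP (-0.18 and -0.01). At Day 15 Slc7a3 in +Wnt was back at 28.5 ± 0.258 CPM and Trib3 at 5.998 ± 1.41 CPM (SD, n = 3).

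Targets of p53, the stress-activated tumour suppressor, fell in 11 of 15 cases (73.3%, beside 18.2% of all genes). Their median log2 change was -0.64. Ccng1, a cyclin that feeds back on p53 at chr11:40748552-40755311 on the minus strand, had 764, 784 and 795 CPM at Day 10, 221, 232 and 251 CPM in +Fgf and 349, 318 and 322 CPM in +Wnt. The groups were separate and the replicates of each lay close together (log2 change -1.49, SE 0.05, adjusted p = 1.52e-11). Phlda3, an inhibitor of Akt, had 79.1, 72.2 and 79.9 CPM, then 26.9, 24.97 and 30.0 CPM in +Fgf and 28.4, 24.99 and 24.2 CPM in +Wnt. Here the stimulations overlapped (-1.49 and -1.57, adjusted p of the difference = 0.607). Aen, an apoptosis nuclease, fell by 1.12 (SE 0.04) and Zmat3, a splicing regulator, by 1.10 (SE 0.04).

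Cdkn1a, the p21 inhibitor of cyclin-dependent kinases, fell from 161, 182 and 167 CPM to 71.5, 72.7 and 79.2 CPM in +Fgf and 112, 116 and 129 CPM in +Wnt, with the larger change in +Fgf (adjusted p of the difference = 2.84e-07). Against the direction of the list, the antiproliferative gene Btg2 rose by 0.62 (SE 0.05) and the sestrin Sesn1 by 0.42 (SE 0.08). Btg2 is also a gene of neurogenic divisions, and reached 270.3 ± 11.6 CPM at Day 15 in +Fgf against 100.3 ± 6.30 CPM in +Wnt (SD, n = 3).

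**Figure D3:**
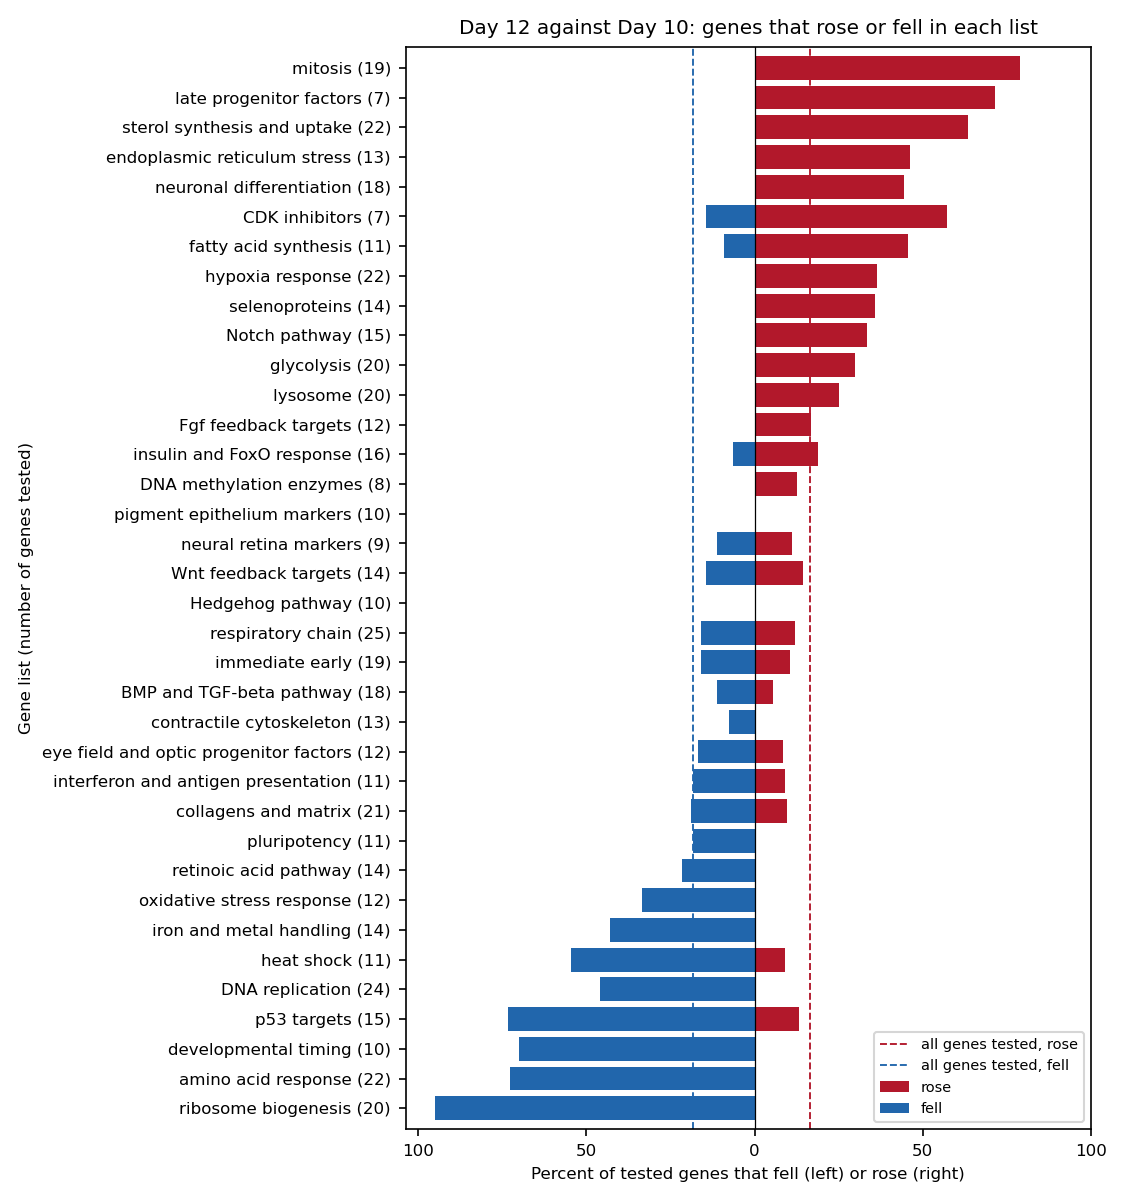
Percentage of the tested genes of each of 36 gene lists that rose (right, red) or fell (left, blue) at Day 12 in both stimulations, with dashed lines at the shares of all genes tested, 16.6% and 18.2%. Ribosome biogenesis (95.0%), p53 targets (73.3%), the amino acid response (72.7%) and developmental timing (70.0%) reach furthest to the left, and mitosis (78.9%) and late progenitor factors (71.4%) furthest to the right.

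Cell cycle genes went in opposite directions. Mitosis genes rose in 15 of 19 cases (78.9%, beside 16.6% of all genes), with a median log2 change of 0.42. All 4 others were called higher with overlap, and limma called 29.8% of all genes higher. Ccnb2, a B-type cyclin of mitotic entry, had 35.0, 38.2 and 36.2 CPM at Day 10, 96.5, 98.2 and 88.3 CPM in +Fgf and 76.4, 75.9 and 78.7 CPM in +Wnt. The +Fgf values were the highest and all 3 groups were separate (log2 change 1.36 and 1.07, adjusted p of the difference = 0.000652). Nusap1, a spindle protein, rose by 0.75 (SE 0.04) and the proliferation antigen Mki67 by 0.56 (SE 0.07). In 12 of the 15 the stimulations differed, always with more in +Fgf. By Day 15 in +Wnt the median of the list was -0.97 relative to Day 10, with Nusap1 at 82.4 ± 1.64 CPM after 118 ± 5.12 CPM at Day 10 (SD, n = 3).

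DNA replication genes fell in 11 of 24 cases (45.8%, beside 18.2% of all genes), with a median log2 change of -0.24. With overlap, 3 others were called higher and 3 lower. The helicase subunit Mcm5 had 360.2, 367 and 350.5 CPM at Day 10, 264, 277 and 256 CPM in +Fgf and 234, 234 and 227 CPM in +Wnt. Mcm4, of the same helicase, fell by 0.51 (SE 0.05). Both continued down to 77.2 ± 6.33 and 99.7 ± 1.23 CPM at Day 15 in +Wnt (SD, n = 3).

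Among 7 inhibitors of cyclin-dependent kinases, 4 rose (57.1%, beside 16.6% of all genes) and Cdkn1a fell. Cdkn2c, the INK4 inhibitor p18, had 2.04, 2.21 and 2.67 CPM at Day 10, 6.78, 7.52 and 9.07 CPM in +Fgf and 7.93, 9.47 and 6.29 CPM in +Wnt. Its values overlapped between stimulations (1.63 and 1.64, adjusted p of the difference = 0.965). Cdkn2b, the TGF-beta responsive p15, rose mainly in +Fgf: 0.273, 0.334 and 0.459 CPM became 11.3, 7.52 and 18.7 CPM in +Fgf and 0.818, 0.696 and 0.861 CPM in +Wnt. Cdkn2d rose by 0.56 and Cdkn1b, p27, by 0.39 on the log2 scale.

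Metabolic genes rose in several groups. Sterol synthesis and uptake genes did so in 14 of 22 cases (63.6%, beside 16.6% of all genes), with a median log2 change of 0.40. Hmgcs1, the enzyme that makes the precursor of mevalonate, had 442, 471 and 448 CPM at Day 10, 708, 819.8 and 619 CPM in +Fgf and 653, 586 and 600.4 CPM in +Wnt. All Day 12 values exceeded Day 10 and the stimulations overlapped (log2 change 0.54, SE 0.07, adjusted p = 6.54e-06). Insig1, a sterol sensor, rose by 0.53 (SE 0.06). The 250 bases before the RefSeq start of Hmgcs1 are shown because they hold the sterol element, searched as TCACNCCAC and set in capitals (chr13:119690101-119690350, plus strand, GRCm38.p6).
Hmgcs1: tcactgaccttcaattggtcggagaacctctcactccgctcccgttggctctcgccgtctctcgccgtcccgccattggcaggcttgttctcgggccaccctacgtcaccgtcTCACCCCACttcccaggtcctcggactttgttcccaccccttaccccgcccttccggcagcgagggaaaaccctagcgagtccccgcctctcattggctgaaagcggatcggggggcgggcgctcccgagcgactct
This motif starts at position -137. It was found in 1 of 13 promoters of the list (7.69%) and in 1.07% of all 10179 promoters. CCAAT, the box bound by NF-Y, occurred in 12 of the 13 (92.3%) and in 39.2% of all, with 41.5% of promoters of genes that rose and 38.0% of genes that fell.

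Fatty acid genes rose in 5 of 11 cases (45.5%, beside 16.6% of all genes). The desaturases Scd1 and Scd2 went up by 0.88 (SE 0.11) and 0.78 (SE 0.05), and Fads2 by 0.69 (SE 0.05). Scd2 had 1417, 1441 and 1483 CPM at Day 10, 2360.0, 2588 and 2205 CPM in +Fgf and 2656, 2568 and 2607 CPM in +Wnt. Acly, which supplies cytosolic acetyl-CoA to the pathway, fell slightly, by 0.23 (SE 0.04).

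Hypoxia response genes rose in 8 of 22 cases (36.4%, beside 16.6% of all genes) and differed between libraries of the same group. Their median log2 change was 0.36. Bnip3, a mitophagy receptor induced by HIF at chr7:138890836-138909519 on the minus strand, had 33.4, 39.7 and 30.6 CPM at Day 10, 73.3, 154 and 66.8 CPM in +Fgf and 208, 112 and 178 CPM in +Wnt. Replicate 2 was the highest +Fgf library and the lowest +Wnt library. The median of the whole list followed the same libraries, at 0.32, 0.60 and 0.23 in +Fgf and 0.51, 0.05 and 0.33 in +Wnt. Ankrd37 rose by 1.78 (SE 0.16), the collagen prolyl hydroxylase P4ha1 by 0.87 (SE 0.10) and the oxygen sensor Egln3 by 0.86 (SE 0.17). Vegfa, the vascular growth factor, was not called (0.25, adjusted p = 0.137), though it reached 236 ± 22.7 and 305 ± 30.5 CPM at Day 15 after 62.3 ± 10.1 CPM at Day 10 (SD, n = 3). With the RNA integrity number as a covariate 5 members rose and the median of the list was 0.18.

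The core of the HIF site, ACGTG, occurred in 11 of 18 promoters of this list (61.1%) and in 25.5% of all 10179 promoters. The longer palindrome CACGTG contains it on both strands. The Bnip3 promoter holds this palindrome from position -108 of the RefSeq start, in capitals here in the 237 bases before the GENCODE gene (chr7:138909520-138909756, minus strand, GRCm38.p6).
Bnip3: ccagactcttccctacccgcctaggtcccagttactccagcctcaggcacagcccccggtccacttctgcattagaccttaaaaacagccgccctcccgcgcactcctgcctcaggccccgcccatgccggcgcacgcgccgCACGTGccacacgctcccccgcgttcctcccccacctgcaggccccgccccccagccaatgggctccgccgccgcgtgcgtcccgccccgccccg
ACGTG stood in 22.7% of promoters of genes that rose and 29.0% of those that fell. CACGTG, which is also the E-box bound by Myc, was present in 10.1% of all promoters, in 8.15% and 12.2% of the genes that rose and fell, and in 4 of 16 ribosome biogenesis promoters (25.0%).

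Glycolysis genes rose in 6 of 20 cases (30.0%, beside 16.6% of all genes), with a median log2 change of 0.21. Hk1, hexokinase, had 27.7, 25.9 and 32.1 CPM at Day 10, 69.3, 62.1 and 66.3 CPM in +Fgf and 50.7, 41.4 and 42.9 CPM in +Wnt. The glucose transporter Slc2a1 rose by 0.77 (SE 0.08), the triose isomerase Tpi1 by 0.98 (SE 0.12), Aldoa by 0.58 (SE 0.11) and Pfkm by 0.48 (SE 0.04). Ldha, lactate dehydrogenase, overlapped because its libraries spread from 593 to 1220.0 CPM in +Fgf and from 561 to 1229 CPM in +Wnt. Gapdh was called lower with overlap (-0.15, adjusted p = 0.0382). The covariate fit gave a median of 0.019 for this list with 6 genes that rose.

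**Figure D4:**
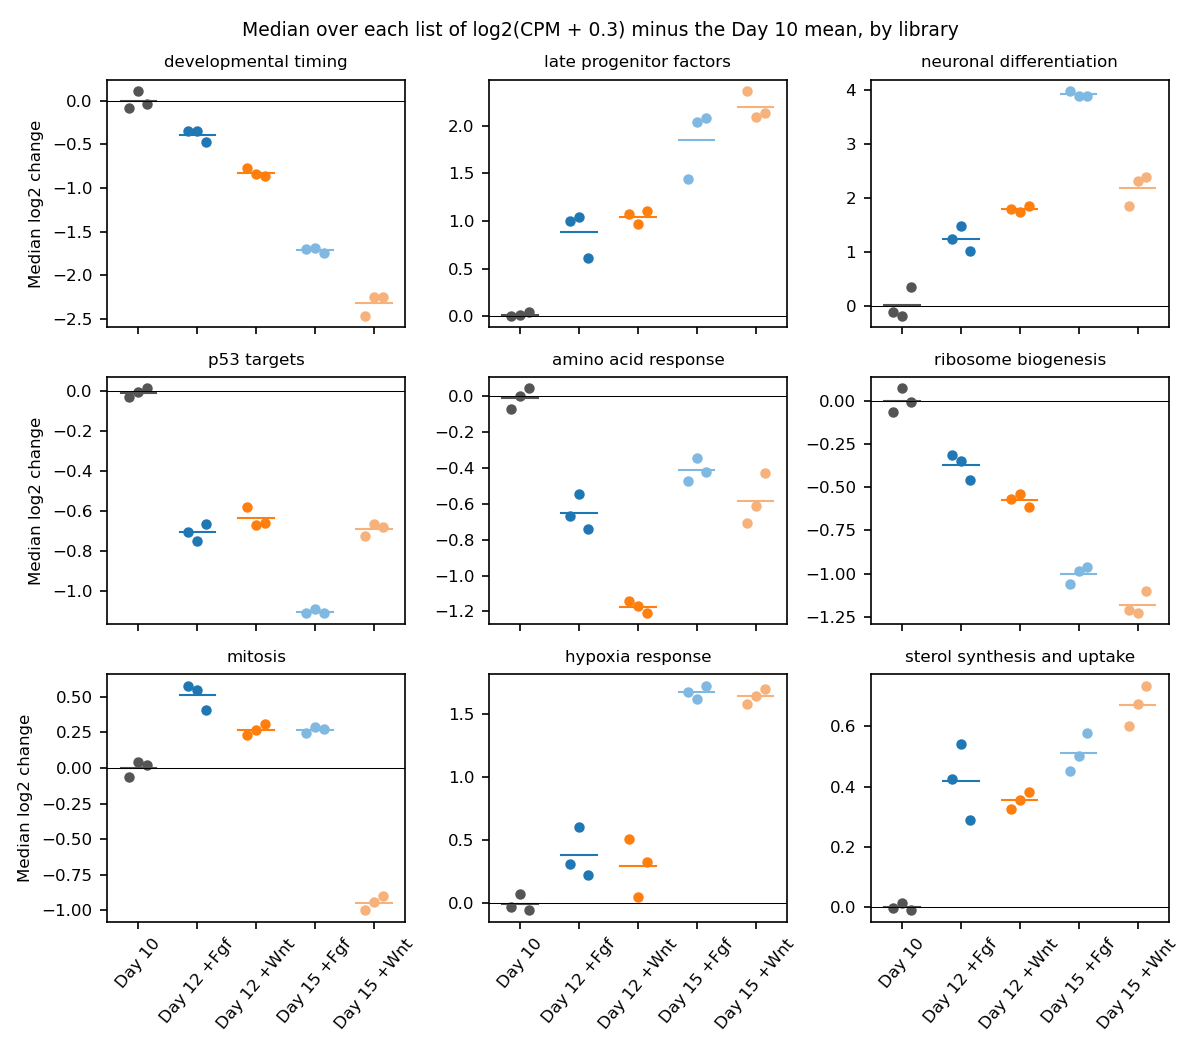
Median over the tested genes of 9 gene lists of log2(CPM + 0.3) minus the gene's Day 10 mean, 1 point per library in the 15 libraries and a line at each group's mean. Developmental timing, ribosome biogenesis and p53 targets stay below 0 from Day 12 to Day 15, amino acid response medians are nearer to 0 at Day 15 than at Day 12, and mitosis in +Wnt goes from 0.23 to 0.31 at Day 12 to -1.0 to -0.90 at Day 15.

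Redox, metal and heat shock lists held more genes that fell than genes that rose. Iron and metal handling genes fell in 6 of 14 cases (42.9%) and heat shock genes in 6 of 11 (54.5%). Of all genes 18.2% fell. Against this direction, the Hsp110 chaperone Hspa4l of the heat shock list rose by 0.54 (SE 0.06). Hspa8, the constitutive Hsc70 chaperone, had 4673, 4495 and 4607 CPM at Day 10, 3454, 3403 and 3186 CPM in +Fgf and 2995, 2977 and 3000.0 CPM in +Wnt, so that its 3 groups did not overlap. The mitochondrial chaperonin genes Hspd1 and Hspe1 fell by 0.54 (SE 0.05) and 0.34 (SE 0.05). Of 12 oxidative stress genes, 4 fell (33.3%, beside 18.2% of all genes), while 3 were called higher and 1 lower with overlap. Srxn1 (sulfiredoxin) fell by 0.77 and Gclc (the rate-limiting enzyme of glutathione synthesis) by 0.61. Gstm1 (a glutathione transferase) fell by 0.46 and Txnrd1 (thioredoxin reductase) by 0.34. Txnrd1 was the most regular, with 382, 376 and 376 CPM at Day 10, 296, 306 and 296 CPM in +Fgf and 305, 302 and 293 CPM in +Wnt. Txnip, the glucose-induced inhibitor of thioredoxin in the insulin and FoxO list, went the other way, from 30.5, 41.8 and 45.8 CPM to 173, 155 and 174 CPM in +Fgf and 133, 128 and 126 CPM in +Wnt. The change of 1.91 (SE 0.09) was the largest of its list.

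Immediate early genes, which respond within minutes to handling and growth factors, rose in 10.5% of cases and fell in 15.8%. Both shares were below those of all genes, 16.6% and 18.2%. The median log2 change of the list was 0.49 in +Fgf and -1.3 in +Wnt. Fosb fell from 7.43, 4.48 and 2.98 CPM to 0.254, 0.446 and 0.831 CPM in +Fgf and 0.377, 0.139 and 0.331 CPM in +Wnt, and the stress factor Atf3 from 11.0, 15.7 and 11.8 CPM to 5.13, 4.33 and 4.73 CPM and 2.26, 1.81 and 2.25 CPM. Klf4 fell by 1.14 (SE 0.22). Ier3 and Ier5 rose by 0.70 and 0.56, and the remaining 14 of 19 overlapped.

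Of 14 Wnt feedback targets 14.3% rose and 14.3% fell, beside 16.6% and 18.2% of all genes. They were 2 genes that rose, the inhibitors Apcdd1 (0.68 in +Fgf and 2.07 in +Wnt) and Nkd1 (0.50 and 0.45), and 2 that fell, the receptor Lgr5 (-0.40 and -3.25) and the factor Tcf7 (-0.90 and -0.31). Axin2, the usual reporter of the pathway, changed by -1.51 in +Fgf and 1.18 in +Wnt and so was outside the rule. In the Fgf feedback list of 12 (16.7% rose) the phosphatase Dusp4 (0.68 and 0.84) and the inhibitor Spry1 (0.74 and 0.37) rose. All 10 Hedgehog genes tested overlapped, while 35.4% of all genes did not.

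Of 12 eye field genes 1 rose and 2 fell (8.33% and 16.7%, beside 16.6% and 18.2% of all genes). The other 9 were called lower by limma, in the mean of both stimulations, with overlapping values. The median log2 change of the list was 0.13 in +Fgf and -0.98 in +Wnt. Lhx2, a homeobox gene that the eye field needs, fell from 471, 495 and 465 CPM to 325, 278 and 305 CPM in +Fgf and 275, 274 and 270.4 CPM in +Wnt, with a log2 change of -0.73 (SE 0.06) and no detected difference between stimulations (0.15, adjusted p = 0.0882). Meis1 fell by 0.33 (SE 0.04), and Nr2e1, the nuclear receptor of progenitors known as Tlx, rose by 0.93 (SE 0.16). Crx, the photoreceptor homeobox gene, fell from 9.403, 6.75 and 10.3 CPM to 1.14, 2.99 and 1.34 CPM in +Fgf and 2.26, 3.13 and 3.24 CPM in +Wnt. It then stood at 103 ± 12.1 CPM at Day 15 in +Fgf and at 2.53 ± 0.212 CPM in +Wnt (SD, n = 3).

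Summed levels of several marker lists of other tissues lay outside their Day 10 range at Day 12. Of mesenchyme and neural crest markers, Prrx1 (0.42) and Tfap2a (0.91) rose among 10 tested, and the summed level of the list was 59.9 to 73.2 CPM at Day 10, 69.3 to 105.8 CPM in +Fgf and 102 to 124.9 CPM in +Wnt. Surface ectoderm and lens markers summed to 147 to 199, 142 to 169 and 91.9 to 138 CPM, with Epcam up by 1.10 and Krt18 down by 0.62 on the log2 scale and Krt14 at 0 in all 9 libraries. With the RNA integrity number as a covariate 1 mesenchyme and neural crest marker rose in place of 2, and the fall of Krt18 was not called.

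Endothelial markers summed to 37.1 to 61.3 CPM at Day 10, 100.3 to 171 CPM in +Fgf and 6.04 to 10.1 CPM in +Wnt, and choroid plexus markers to 128 to 166.5, 57.8 to 84.1 and 174.9 to 196 CPM in the same order. Forebrain markers summed to 147 to 192, 108 to 170.1 and 264 to 309 CPM, and midbrain and hindbrain markers to 26.3 to 34.2, 27.3 to 64.4 and 10.8 to 15.0 CPM. Thus endothelial and choroid plexus sums moved to opposite sides of their Day 10 range. A sum follows its highest genes, and Kdr had the highest level of the endothelial markers. The median log2 change of the 4 endothelial markers tested was -0.13 in +Fgf and 0.09 in +Wnt, opposite in sign to the sum. Blood and microglia markers summed to at most 1.76 CPM in these 9 libraries, with C1qb at 0, but to 19.2 to 22.1 CPM in +Wnt at Day 15. Over all genes tested, 35.4% did not overlap. In the endothelium, forebrain, midbrain and hindbrain, choroid plexus and endoderm lists all tested genes overlapped, apart from 1 endothelial marker limma did not call. Their part in the changes above was not tested.

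Direction was shared by construction, but size often was not. The 2 stimulations differed at Day 12 in 1978 of the 4896 genes (40.4%), beside 51.5% of all genes tested. Among the 1021 such genes that were higher than at Day 10, the change was larger in +Fgf for 448 and larger in +Wnt for 573. Among the 957 that were lower, it was larger in +Fgf for 279 and in +Wnt for 678. Differences of at least 1 on the log2 scale were found in 146 of the higher and 75 of the lower genes, and in 1758 of all genes tested.

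By Day 15 the medians had moved further from Day 10. The median log2 value of the higher genes relative to Day 10 was 0.488 in +Fgf and 0.507 in +Wnt at Day 12, and 0.678 and 0.775 at Day 15. For the lower genes the medians were -0.315 and -0.38, then -0.517 and -0.71. Day 15 and Day 12 differed for 57.1% of all genes tested in +Fgf and 67.9% in +Wnt. These shares are for either direction, and the split by direction over all genes is not given here. Of the 2338 higher genes, 1104 were called higher again at Day 15 and 335 lower in +Fgf, and 1199 and 466 in +Wnt. Of the 2558 lower genes, 1391 were called lower again and 210 higher in +Fgf, and 1706 and 266 in +Wnt. These steps share their Day 12 libraries with the rule, so that they are not independent of it.

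The genes on either side did not differ greatly in size. Median genomic span was 25.0 kb for the higher genes, 23.6 kb for the lower genes and 25.3 kb over all genes tested, and median longest transcript 3.3, 3.5 and 3.49 kb, for the 93.8%, 94.1% and 93.6% matched to 1 GENCODE gene. Their median level over the 9 libraries was 24.4 CPM for the higher genes, 67.0 CPM for the lower genes and 29.8 CPM for all.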

How the data were processed

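RNA-seq libraries of 15 samples in 5 groups of 3 were analysed, grouped by their labels. Per the labels and the study's methods, the authors mapped reads to mm10 with TopHat2 2.0.8b, assembled and counted with Cufflinks 2.1.1 and normalised with edgeR 3.2.4. The deposited values are a signal in CPM: library totals run from 936418 to 1075448, and 100.0% of values above 0 are whole reads (tolerance 0.01) worth 0.0620 to 0.0764 CPM each. Whether counting used strand is not given in the sources used here. Replicates are biological per the study's methods, all from 1 cell line, and p-values measure the spread between these samples.

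Values were tested as log2(CPM + 0.3), on which a fold change of a low gene is understated. Limma 3.58.1 (trend, R 4.3.3) was fitted to the 5 group means of all 15 libraries with the contrast of the mean of both Day 12 groups minus Day 10, and with +Fgf minus +Wnt at Day 12 and Day 15 minus Day 12. P-values are two-sided, Benjamini-Hochberg adjusted over 13836 genes, threshold 0.05. Genes with at least 1 CPM in 3 libraries were kept. The script was tested on simulated data. Named genes were the 12 highest and 12 lowest called genes by the smaller of the 2 stimulations' changes, with a mean of at least 10 CPM in the higher stage, up to 4 examples per list with at least 5 CPM, other list genes with their values, and the genes at the border of the rule with at least 10 CPM throughout. The members and the 44 lists (629 genes, 4 of them not matched to 1 entry) were chosen with earlier results of these data known. Gene positions are from GENCODE M21 (GRCm38) and promoters from RefSeq (GRCm38.p6). Alternatives were a fit to 9 libraries, other pseudocounts, filters and scalings, the RNA integrity number as a covariate (from the study's record of its libraries), edgeR 4.0.16 on the recovered reads, a replicate block and leaving out each library. A few genes are not reported here. Figures used Python 3.11.15, pandas 2.3.3 and matplotlib 3.10.9.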

Additional observations from a re-analysis of the deposited data

Results flagged for a closer look

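The difference between +Fgf and +Wnt at Day 12 passed limma's threshold in 1978 of the 4896 genes. Among the 24 genes with the largest shared change it did so in 10, each given as the +Fgf minus the +Wnt log2 change. Of those that rose, the difference was -0.383 for Tmem35 and -1.031 for Stmn4, so that these were higher in +Wnt. It was 1.147 for the non-coding RNA D930028M14Rik, 0.799 for Capn3 and 0.506 for Sema6d, which were higher in +Fgf.

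Of those that fell, the fall was smaller in +Fgf for Lgals3 (1.701), Aldh1a1 (2.905) and Aldh1a7 (2.445). It was smaller in +Wnt for Mt1 (-0.663) and Alpl (-0.677). The largest adjusted p of these 10 differences belonged to Sema6d (limma adjusted p = 0.0127).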

How the results depend on the processing

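Counts over all genes stayed within 1.5 times their main value under the alternatives, while those of short lists did not always. The 24 named genes kept their direction and their call under all 17 settings tried for them. They were chosen for a large change in these same values, and leaving out a library could not reverse their direction. That result is therefore no independent test of their change. Leaving out 1 library at a time, limma called 7173 to 7930 genes (3660 to 4059 higher, 3513 to 3880 lower), and 5128 to 5780 genes had no overlap (2464 to 2792 higher, 2658 to 2988 lower). With a library left out the count without overlap could only stay at 4896 or grow, so its range is no test of the rule. The count of genes that differed between stimulations ranged from 1716 to 2382. With the RNA integrity number as a covariate 5963 genes were called, and 4083 of the 4896 kept their call. Hypoxia response genes that rose then went from 8 to 5, respiratory chain genes that fell from 4 to 2, pluripotency genes that fell from 2 to 0, mesenchyme markers that rose from 2 to 1 and surface ectoderm markers that fell from 1 to 0. EdgeR on recovered reads called 8009 genes, with 1 endothelial marker that fell in place of 0. Quantile normalization called 7576 and left 3972 of the 4896 without overlap, with 1 respiratory chain gene that fell and 4 pluripotency genes in place of 2, and moved several other list counts of 0 to 2 by 1 gene. Median of ratios scaling left 3 lysosome genes that rose in place of 5. The share of called genes that were higher lay between 48.4% and 51.4% (main 51.1%).

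Replicate numbers were not treated as pairing the samples. Only 1 of 9 same-numbered pairs of libraries had deviations correlated over 0.1 (range -0.105 to 0.11), and a differently numbered pair reached 0.159. The labels do not say whether libraries of the same number shared a culture batch, and these correlations cannot decide it. The fit with a replicate block called 8064 genes, 4805 of the 4896 among them, and 1948 that differed between stimulations. With 3 libraries a group the spread is poorly known for genes of a few CPM. No unstimulated Day 12 tissue was analysed here, and the RNA integrity number differs with the day in all 6 Day 12 libraries, so that day, culture and stimulation in common cannot be told apart.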

Other observations

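Genes of protein folding in the endoplasmic reticulum rose in 6 of 13 cases (46.2%, beside 16.6% of all genes). Xbp1, the factor of the unfolded protein response, had 41.4, 34.7 and 37.5 CPM at Day 10, 52.8, 53.01 and 54.8 CPM in +Fgf and 53.2, 59.5 and 62.0 CPM in +Wnt. The disulfide isomerases Pdia4 and Pdia6 rose by 0.48 (SE 0.04) and 0.44 (SE 0.04) on the log2 scale, and Hsp90b1, the chaperone of this compartment, by 0.31 (SE 0.04). Selenoproteins, which carry selenocysteine, rose in 5 of 14 cases (35.7%, beside 16.6% of all genes). These were led by the selenium carrier Sepp1 (1.87, SE 0.12) and the secreted peroxidase Gpx3 (0.86, SE 0.12). With overlap, 2 others were called higher and 2 lower. Dio3, the selenoenzyme that inactivates thyroid hormone, was outside the rule, with a mean of 22.7 ± 3.57 CPM at Day 10, 22.0 ± 4.48 CPM in +Fgf and 0.62 ± 0.127 CPM in +Wnt (SD, n = 3). Lysosome genes rose in 5 of 20 cases (25.0%, beside 16.6% of all genes). The stimulations differed in 4 of these 5, always with the larger change in +Wnt. The median log2 change of the list was 0.0164 in +Fgf and 0.526 in +Wnt.

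Matrix genes rose in 9.52% of cases and fell in 19.0%, beside 16.6% and 18.2% of all genes. The median log2 change of the list was 0.67 in +Fgf and -0.44 in +Wnt. Col5a2, a fibrillar collagen, rose from 17.7, 17.1 and 19.3 CPM to 50.8, 50.1 and 57.4 CPM in +Fgf and 33.8, 37.9 and 41.6 CPM in +Wnt. Col1a2 rose by 2.96 in +Fgf and 0.62 in +Wnt (adjusted p of the difference = 6.25e-09). The laminin chain Lama5 (-0.89, SE 0.11), the proteoglycan Vcan (-0.84, SE 0.12), Col9a1 (-0.52, SE 0.07) and Col18a1 (-0.50, SE 0.05) fell, which makes 2 up and 4 down of 21. Dnmt3a, which sets new DNA methylation, was the member of its list of 8 that rose (12.5%). It went from 106, 100.4 and 111 CPM to 244, 243 and 247 CPM in +Fgf and 188, 177 and 177 CPM in +Wnt. Its relative Dnmt3b had 73.0, 81.8 and 74.5 CPM, then 83.2 to 88.5 CPM in +Fgf and 41.0 to 44.4 CPM in +Wnt.

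Smaller counts were found in other lists, with shares near or below the 16.6% that rose and 18.2% that fell among all genes. Pluripotency genes fell in 18.2% of cases and contractile cytoskeleton genes in 7.69%. The shares that rose and fell were 5.56% and 11.1% for BMP and TGF-beta, 9.09% and 18.2% for interferon, and 18.8% and 6.25% for insulin and FoxO. The pluripotency genes Klf2 (-0.96) and Tfcp2l1 (-0.79) fell among 11 tested, and neither fall was called with the RNA integrity number as a covariate. In the BMP and TGF-beta list of 18, the ligand Tgfb2 rose (1.68 in +Fgf and 0.29 in +Wnt), while the ligand Bmp4 (-1.19 and -0.55) and its target Msx2 (-0.90 and -1.44) fell. Respiratory chain genes rose in 3 and fell in 4 of 25 cases (12.0% and 16.0%). Among 11 interferon genes Ifit3 rose (0.81 in +Fgf and 2.69 in +Wnt), and Ifitm2 (-0.39) was among those that fell. The angiomotin Amotl2 (-0.59) was the gene that fell among 13 of the contractile cytoskeleton, and in the insulin and FoxO list of 16 Pik3ip1 (0.90) and Ccng2 (0.36) rose with Txnip while Foxo3 fell (-0.61).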
